A study of Mus musculus with 9 samples.

Results

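The genes described here are 39 that carry out or feed DNA replication: the helicase that opens the double strand, the proteins that load it onto origins, the polymerases and their clamp, the enzymes that join new fragments, and the enzymes that make deoxynucleotides. They were taken from a list of symbols and found by gene identifier among the 49585 genes of each file, and all 39 were found. RNA was sequenced from 9 organoid libraries grown from flow-sorted prostate basal cells of C57BL/6J mice and harvested after 5 days. Every group was fed the same base medium, BM, which contains B27, N-acetylcysteine, EGF, the BMP antagonist Noggin, a ROCK inhibitor and a compound that blocks the type I receptor of TGF-β. Libraries BM 1 to 3 had nothing more, R 1 to 3 also had R-spondin1 at 500 ng/ml, which strengthens the response to Wnt ligands, and RD7 1 to 3 had the same R-spondin1 and DHT, an androgen, at 100 nM. No group received DHT without R-spondin1. The age of the mice, and whether the 3 libraries of a medium were made from different mice or sorts, are not given in the sources used here, so p-values measure only the spread between these samples, which may be technical.

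A cell copies its genome once in each cycle. In G1, the origin recognition complex with Cdc6 and Cdt1 loads the ring of Mcm2 to Mcm7 onto origins. Cyclin E with its kinase, and the E2F transcription factors that drive many replication genes, then bring the cell into S phase, where Cdc45 and the GINS complex turn the ring into an active helicase and the polymerases follow. RNA of most of these genes is high in cells that cycle and low in cells that rest. In bulk RNA, fewer cycling cells and less of each RNA per cell cannot be told apart.

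E2F factors bind short elements close to the start sites of many replication genes, so promoter sequences are shown before the values, for the element itself and for 1 well-known gene that holds no copy. Promoters of 33 of the 39 genes were found in RefSeq (GRCm38.p6), from 250 bases before to 50 after each start. The E2F consensus was searched as TTTCCCGC, TTTCGCGC, TTTGCCGC and TTTGGCGC on both strands, where overlapping matches can be the same element read from both sides. It was present for 13 of 33 genes (39.4%), against 704 of 27025 genes in the whole promoter table (2.6%). A gene with more than 1 promoter in the table was counted if any of them held a match. Uhrf1, Lig1 and Mcm7 each also had a promoter without a match. The 13 were Mcm3, Mcm5, Mcm6, Mcm7, Gins3, Cdc6, Cdt1, Uhrf1, Pola1, Pold1, Rfc3, Lig1 and Orc1. A second element, the CHR of genes active late in the cycle (TTTGAA or TTCGAA on both strands), was present for 6 of 33 (18.2%) and for 21.7% of all genes. A match describes letters only, and Gins1, Gins2, Gins4, Mcm4, Ccne2 and Pole had no entry in the table.

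Whole promoters are given for Mcm6, with 3 matches, for Cdc6, with 1, and for Pcna, with none of the searched letters; matches are in capitals and each sequence reads 5′ to 3′ along the gene's own strand. Mcm6 covers chr1:128359656-128359955 (minus strand), Cdc6 chr11:98907901-98908200 (plus strand) and Pcna chr2:132253131-132253430 (minus strand).
Mcm6: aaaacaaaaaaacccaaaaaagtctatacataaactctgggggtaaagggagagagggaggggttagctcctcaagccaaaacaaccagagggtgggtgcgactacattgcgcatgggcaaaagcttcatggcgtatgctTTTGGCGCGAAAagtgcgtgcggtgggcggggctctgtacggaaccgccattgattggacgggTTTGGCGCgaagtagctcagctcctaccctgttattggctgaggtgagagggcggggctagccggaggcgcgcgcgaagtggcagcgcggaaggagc
Cdc6: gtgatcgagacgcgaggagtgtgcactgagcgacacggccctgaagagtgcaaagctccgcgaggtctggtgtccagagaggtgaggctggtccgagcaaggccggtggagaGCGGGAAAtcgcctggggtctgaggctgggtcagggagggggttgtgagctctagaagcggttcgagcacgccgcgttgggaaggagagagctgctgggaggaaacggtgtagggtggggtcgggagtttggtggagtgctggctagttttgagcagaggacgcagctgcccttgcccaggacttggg
Pcna: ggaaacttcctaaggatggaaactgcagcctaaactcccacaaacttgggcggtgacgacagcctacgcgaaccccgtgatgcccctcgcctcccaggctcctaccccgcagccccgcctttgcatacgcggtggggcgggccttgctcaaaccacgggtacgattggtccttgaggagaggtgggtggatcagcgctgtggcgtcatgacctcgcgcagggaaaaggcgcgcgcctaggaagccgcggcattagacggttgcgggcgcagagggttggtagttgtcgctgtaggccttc

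For comparison of the element among the other genes that hold it, the match nearest to the start is given with up to 10 bases on each side for 6 of them. They lie at chr1:20820276-20820303 (minus strand) for Mcm3, chr8:75109350-75109377 (plus strand) for Mcm5, chr5:138171850-138171877 (minus strand) for Mcm7, chr4:108579417-108579444 (plus strand) for Orc1, chr17:56304118-56304145 (plus strand) for Uhrf1 and chr8:122568037-122568064 (plus strand) for Cdt1. The Uhrf1 match lies in the more downstream of its promoters in the table.
Mcm3: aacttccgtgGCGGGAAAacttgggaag
Mcm5: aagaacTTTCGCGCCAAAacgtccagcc
Mcm7: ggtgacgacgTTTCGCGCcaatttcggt
Orc1: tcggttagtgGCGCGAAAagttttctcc
Uhrf1: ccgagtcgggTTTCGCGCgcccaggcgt
Cdt1: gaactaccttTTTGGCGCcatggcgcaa

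Values are FPKM as deposited, which are scaled by gene length and by the reads counted in a library. Those reads ranged from 6505859 in BM 1 to between 15961444 and 24141017 in the other 8 libraries. Every replication gene passed the filter on low values (0.5 CPM, counted reads scaled to the library total, in at least 3 libraries), as did 15860 genes in all, and the fewest reads behind any value were 71, for Gins3 in BM 1. Differences are given as log2 fold changes of FPKM + 0.5, each with its SE, from limma over all 9 libraries with Benjamini-Hochberg adjustment over all genes tested, and a gene is called at an adjusted p under 0.05. Means are ± SD with n = 3 libraries. Basal markers stood high in every library, with 6 markers summing to between 7155 and 10370 FPKM, and the luminal markers, of which Krt8 and Krt18 were the most abundant, to between 1702 and 2712. Markers of leukocytes, endothelium and neuroendocrine cells summed to at most 4.13, 0.536 and 0.691 FPKM. The 7 mesenchymal markers summed to 15.7 to 24.4 FPKM in BM, 22.9 to 29.3 in R and 65.1 to 93.2 in RD7. Most of that sum in R and RD7 was Dcn (21.9 and 76.6 FPKM), the 1 marker of the 7 that was higher in RD7 than in R (log2 fold change 1.77 ± 0.20). Lower in RD7 than in R were Acta2 (-1.22 ± 0.23), Vim (-0.38 ± 0.12), Col1a1 (-0.51 ± 0.15) and Col3a1 (-0.60 ± 0.13), while Col1a2 and Pdgfra were not called. The call of Vim was lost without R 2, R 3, RD7 1 or RD7 3 and that of Col1a1 without R 1, R 3, RD7 2 or RD7 3 (limma adjusted p up to 0.32 and 0.21 over the settings tried). Vim was also low in both media, at means of 0.24 FPKM in R and 0.066 in RD7, with 1, 10 and 6 reads in RD7 1 to 3. Col1a1, Col1a2, Col3a1 and Pdgfra were under 1 FPKM in all libraries, and the part of these markers' cells in the results was not tested.

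Most replication genes were lower with DHT. Of the 39 genes, 24 were lower in RD7 than in R, against 17.7% of all genes tested, and none was higher, against 13.4%. The median log2 fold change was -0.67, beside -0.09 over all genes tested. For 32 of the 39 every RD7 library lay below every R library, against 30.1% of all genes. Summed over the 39 genes, FPKM was 1294 ± 24.2 in R, 867 ± 22.6 in RD7 and 1188 ± 34.5 in BM. With R-spondin1 alone no gene was called: limma called 0 of 39 between R and BM, against 10.0% of all genes, and limma-voom also called 0. An unadjusted limma p under 0.05 was reached by 9 of the 39 genes, beside 4104 of the 15860 genes tested. The median log2 fold change of R against BM was 0.08, beside 0.02 over all genes.

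**Figure D1:**
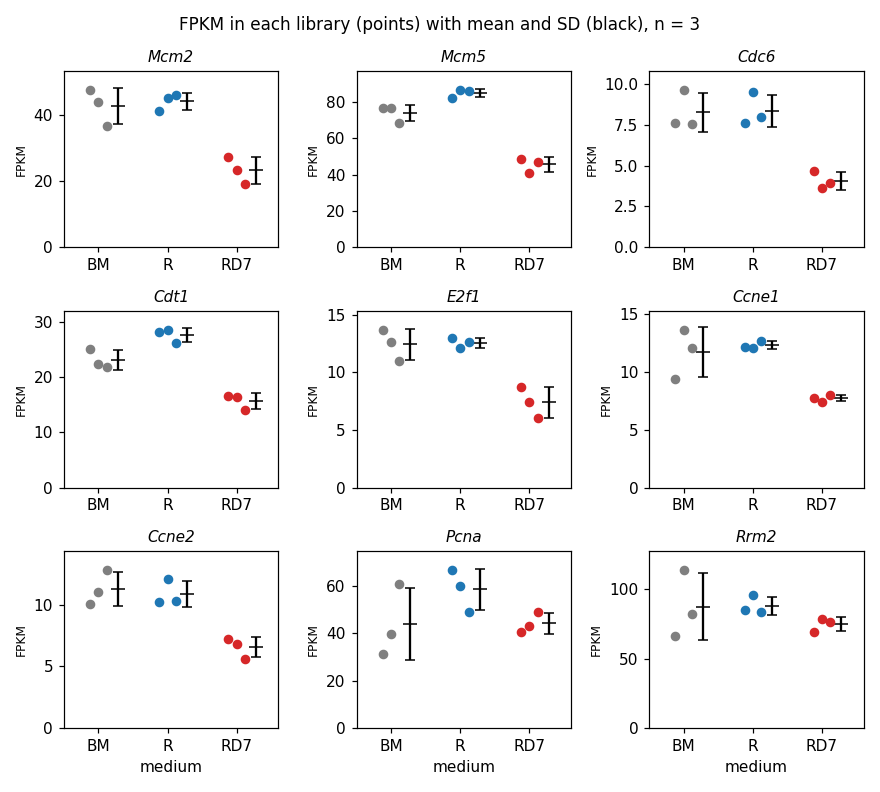
FPKM (vertical axes, from 0) of 9 replication genes in each library of BM, R and RD7, with the mean and SD of 3 libraries in black. Of these genes, the 7 from Mcm2 to Ccne2 have all RD7 points below all BM and R points, while Pcna and Rrm2 in RD7 lie within the range of BM.

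The ring of Mcm2 to Mcm7, the motor of the replicative helicase, was lower with DHT in all of its 6 subunits. Log2 fold changes of RD7 against R ran from -1.18 to -0.67, with limma adjusted p from 0.00019 to 0.0028. Mcm4 was at 86.8, 92.9 and 72.5 FPKM in BM 1 to 3, at 77.7, 87.9 and 91.5 in R 1 to 3 and at 45.6, 35.2 and 32.8 in RD7 1 to 3. The mean in RD7 was 2.26-fold lower than in R, the largest drop of the 39 genes (log2 fold change -1.18 ± 0.16, limma adjusted p = 0.00033). Mcm3 was at 74.3, 75.2 and 64.2 FPKM in BM 1 to 3, at 68.9, 72.1 and 75.5 in R 1 to 3 and at 39, 36 and 36.2 in RD7 1 to 3 (log2 fold change -0.95 ± 0.12, limma adjusted p = 0.00019). Mcm2 was at 47.6, 43.7 and 36.7 FPKM in BM 1 to 3, at 41, 45.2 and 46 in R 1 to 3 and at 27.3, 23.2 and 19.1 in RD7 1 to 3 (log2 fold change -0.92 ± 0.16, limma adjusted p = 0.0016). All RD7 libraries were below all libraries of both other media for these 3 subunits, while BM and R overlapped. Mcm5 was at 76.5, 76.5 and 68.6 FPKM in BM 1 to 3, at 82.4, 86.8 and 85.9 in R 1 to 3 and at 48.8, 41.1 and 46.9 in RD7 1 to 3 (log2 fold change -0.89 ± 0.12, limma adjusted p = 0.0003). For Mcm5 the R libraries also lay above the BM libraries, by a difference that was not called (log2 fold change 0.20 ± 0.12, limma adjusted p = 0.3). Mcm7 was 1.72-fold and Mcm6 1.6-fold lower in RD7 than in R. Mcm6 had the smallest drop in the ring, with 98.8 ± 3.53 FPKM in R and 62 ± 5.93 in RD7 (log2 fold change -0.67 ± 0.13, limma adjusted p = 0.0028). In FPKM, which is per length, it was the most abundant of the 39 genes in BM and R. Mcm7 shares 12.6% of its exon bases with Ap4m1 on the opposite strand, and the kit does not mark strand. Between R and BM the 6 subunits had log2 fold changes of -0.02 to 0.20.

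Of the 6 partners that make the ring an active helicase, 2 were called. Mcm10, which helps origins fire, and Cdc45, a subunit of the active helicase, were lower with DHT. Mcm10 was at 4.84, 6.12 and 3.91 FPKM in BM 1 to 3, at 4.85, 4.62 and 5.43 in R 1 to 3 and at 2.72, 1.91 and 2.24 in RD7 1 to 3 (log2 fold change -0.98 ± 0.18, limma adjusted p = 0.003). Cdc45 had 24.2 ± 2.2 FPKM in R and 14.7 ± 1.00 in RD7 (log2 fold change -0.70 ± 0.12, limma adjusted p = 0.0021). None of the 4 GINS genes was called between RD7 and R, with log2 fold changes of -0.25 ± 0.23 for Gins1, -0.24 ± 0.15 for Gins2, -0.47 ± 0.16 for Gins3 and 0.09 ± 0.19 for Gins4. Gins3 was close to the threshold (limma adjusted p = 0.052), and every RD7 library lay below every R library. It was called without BM 1, BM 2 or RD7 3, with an adjusted p down to 0.041 over the settings tried. Gins4 was at 20.3, 23.9 and 33.1 FPKM in BM 1 to 3, at 38.7, 37.5 and 30.1 in R 1 to 3 and at 31.9, 42.2 and 39.1 in RD7 1 to 3. In Gins4, BM 1 and BM 2 lay below the other 7 libraries, and BM 3 lay within the range of R and RD7. Gins2 shares 67.3% of its exon bases with Gse1 on the opposite strand, so its reads cannot be assigned with certainty.

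Of the 4 licensing genes, 3 were lower with DHT, and Orc6 was not called. Cdc6 was at 7.64, 9.66 and 7.54 FPKM in BM 1 to 3, at 7.63, 9.5 and 7.96 in R 1 to 3 and at 4.68, 3.6 and 3.94 in RD7 1 to 3. Cdc6, the loader that recruits the ring to origins, was 2.05-fold lower in RD7 than in R (log2 fold change -0.95 ± 0.16, limma adjusted p = 0.0015). Cdt1 was at 25.2, 22.5 and 21.8 FPKM in BM 1 to 3, at 28.2, 28.6 and 26.2 in R 1 to 3 and at 16.6, 16.4 and 14 in RD7 1 to 3 (log2 fold change -0.81 ± 0.12, limma adjusted p = 0.00085). Cdt1 works with Cdc6 in loading, and its 3 R libraries were also all above its BM libraries, by 0.26 ± 0.12 in log2, which was not called. Orc1 was at 7.07, 6.13 and 6.03 FPKM in BM 1 to 3, at 6.54, 5.75 and 6.08 in R 1 to 3 and at 3.1, 3.07 and 2.91 in RD7 1 to 3 (log2 fold change -0.91 ± 0.13, limma adjusted p = 0.00061). Orc1 is the largest subunit of the origin recognition complex and rises and falls with the cycle. It shares 10.8% of its exon bases with Gm12743 on the opposite strand. Orc6, the smallest subunit, stood at 15 ± 5.33, 19.4 ± 1.05 and 18.6 ± 1.99 FPKM in BM, R and RD7 (log2 fold change -0.07 ± 0.21, limma adjusted p = 0.84). In its case the RD7 and R libraries overlapped.

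All 3 genes of S-phase entry were lower with DHT. E2f1 was at 13.7, 12.6 and 11 FPKM in BM 1 to 3, at 13, 12.1 and 12.6 in R 1 to 3 and at 8.77, 7.42 and 6.06 in RD7 1 to 3. E2f1 is a transcription factor that turns on many replication genes, and all of its RD7 libraries lay below all others (log2 fold change -0.74 ± 0.15, limma adjusted p = 0.0054). Ccne1 was at 9.41, 13.6 and 12.1 FPKM in BM 1 to 3, at 12.1, 12.1 and 12.7 in R 1 to 3 and at 7.75, 7.43 and 8.01 in RD7 1 to 3 (log2 fold change -0.64 ± 0.15, limma adjusted p = 0.0091). Ccne2 was at 10.1, 11.1 and 12.8 FPKM in BM 1 to 3, at 10.2, 12.1 and 10.4 in R 1 to 3 and at 7.24, 6.83 and 5.64 in RD7 1 to 3 (log2 fold change -0.69 ± 0.15, limma adjusted p = 0.0067). Both encode cyclin E, which activates the kinase Cdk2 at the start of S phase, and in both the RD7 libraries lay below all BM and R libraries. Ccne2 shares 17.4% of its exon bases with Ints8 on the opposite strand. Between R and BM the 3 genes had log2 fold changes of -0.05 to 0.08, and none was called.

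**Figure D2:**
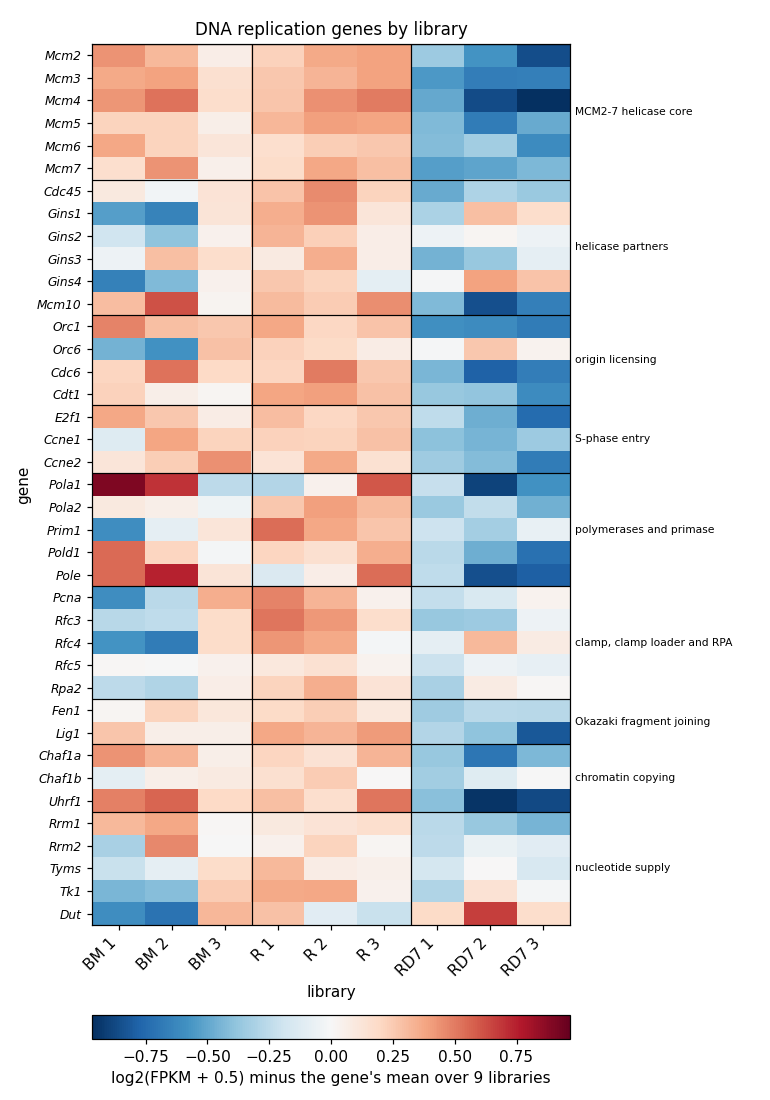
Log2(FPKM + 0.5) of the 39 replication genes (rows, grouped by role) in the 9 libraries (columns), less each gene's mean over the libraries; red is above and blue below that mean. RD7 columns are blue for Mcm2 to Mcm7, and BM 1 and BM 2 are blue for genes such as Gins1, Gins4, Rfc4, Orc6 and Dut, where BM 3 is not.

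Polymerase genes were lower with DHT, with 4 of 5 called. Pola2, the second subunit of polymerase α, had 30.9 ± 1.57 FPKM in R and 19.2 ± 1.55 in RD7 (log2 fold change -0.68 ± 0.12, limma adjusted p = 0.0019). Pold1, the catalytic subunit of polymerase δ, had 31.5 ± 2.3 and 19 ± 3.04 FPKM (log2 fold change -0.72 ± 0.17, limma adjusted p = 0.01). Pole was at 3.65, 4.26 and 2.61 FPKM in BM 1 to 3, at 2.09, 2.48 and 3.64 in R 1 to 3 and at 1.9, 1.08 and 1.15 in RD7 1 to 3 (log2 fold change -0.78 ± 0.24, limma adjusted p = 0.034). Pole, the catalytic subunit of polymerase ε, was the least abundant of the 39 genes in all 3 media. Its call was lost without R 2, R 3, RD7 2 or RD7 3, with an adjusted p of up to 0.13 over the settings tried. Pola1 was at 5.79, 4.94 and 2.32 FPKM in BM 1 to 3, at 2.26, 2.96 and 4.59 in R 1 to 3 and at 2.38, 1.31 and 1.74 in RD7 1 to 3. Pola1, the catalytic subunit of polymerase α, was spread widely within BM and R. Its RD7 and R libraries overlapped, and the difference was not called (log2 fold change -0.69 ± 0.33, limma adjusted p = 0.14). The primase gene Prim1 went from 7.95 ± 2.04 in BM to 11.9 ± 1.2 in R and 7.73 ± 0.734 FPKM in RD7. It was called between RD7 and R (log2 fold change -0.60 ± 0.19, limma adjusted p = 0.036), but not without any 1 of the R and RD7 libraries. Prim1 also lost the call with the trend on gene length or on GC content removed (limma adjusted p up to 0.12 over the settings tried). Between R and BM it had the smallest adjusted p of the 39 genes (log2 fold change 0.59 ± 0.19, limma adjusted p = 0.084), and all R libraries lay above all BM libraries.

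Of the 5 genes of the sliding clamp, its loader and the single-strand binder, 1 was called between RD7 and R. Pcna was at 31.3, 39.8 and 60.9 FPKM in BM 1 to 3, at 66.6, 59.9 and 49.2 in R 1 to 3 and at 40.5, 43.1 and 48.9 in RD7 1 to 3. Pcna, the clamp that holds polymerases on DNA, had its RD7 libraries below its R libraries but within the range of BM, where BM 3 lay within the range of R (log2 fold change -0.40 ± 0.22, limma adjusted p = 0.2). The pseudogene Pcna-ps2 reached 16.4 FPKM in a library, so reads of Pcna cannot be assigned with certainty. Of the clamp loader subunits, Rfc3 had 12.8 ± 1.58 FPKM in R and 8.14 ± 1.11 in RD7 (log2 fold change -0.62 ± 0.17, limma adjusted p = 0.02), and the call was lost without R 1, R 2, RD7 1 or RD7 2 (adjusted p up to 0.078). Rfc4 had log2 fold changes of -0.15 ± 0.23 and Rfc5 of -0.21 ± 0.11. They share 12.7% and 10.7% of their exon bases with Eif4a2 and Wsb2 on the opposite strand. Rpa2, a subunit of the single-strand binding complex, had one of -0.31 ± 0.15, and none of the 3 was called.

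Both genes that finish the lagging strand were lower with DHT. Lig1, the ligase that seals fragments, had 30.4 ± 0.87 FPKM in R and 16.6 ± 3.15 in RD7 (log2 fold change -0.87 ± 0.15, limma adjusted p = 0.002). Fen1, the flap nuclease that trims them, had 67.4 ± 3.22 FPKM in R and 48.6 ± 1.54 in RD7 (log2 fold change -0.47 ± 0.11, limma adjusted p = 0.011), and was not called without R 2 (adjusted p up to 0.057). Of the exon bases of Fen1, 84.2% are shared with the antisense gene Gm10143, and the reads of the 2 cannot be told apart.

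Of the genes that copy chromatin behind the fork, Uhrf1 and Chaf1a were lower with DHT. Uhrf1 was at 72, 75.6 and 58.6 FPKM in BM 1 to 3, at 62.8, 57.3 and 73.4 in R 1 to 3 and at 38.6, 26.3 and 27.8 in RD7 1 to 3. Uhrf1, which brings the maintenance DNA methyltransferase to new DNA, was 2.09-fold lower in RD7 than in R (log2 fold change -1.06 ± 0.18, limma adjusted p = 0.0014). Chaf1a, the large subunit of the histone chaperone CAF-1, had 37.1 ± 2.49 FPKM in R and 22.4 ± 2.69 in RD7 (log2 fold change -0.72 ± 0.15, limma adjusted p = 0.0044). In GENCODE M21, Chaf1a shares 52.5% of its exon bases with Ubxn6 on the opposite strand. The length that gave whole reads for Chaf1a, 3308 bases, was shorter than its longest coding transcript there, 5535 bases. The exons behind the Chaf1a values may therefore differ from these. Its partner Chaf1b was not called (log2 fold change -0.29 ± 0.14, limma adjusted p = 0.14), although its RD7 libraries lay below its R libraries.

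Among the nucleotide supply genes, Rrm1 was the single member lower in RD7 than in R. Rrm1, the large subunit of ribonucleotide reductase, had 31.3 ± 0.703 FPKM in R and 22.2 ± 1.48 in RD7 (log2 fold change -0.49 ± 0.13, limma adjusted p = 0.018). The call was lost without R 1, R 2, R 3, RD7 2 or RD7 3 and with either length trend, the GC trend or median-of-ratios scaling, with an adjusted p of up to 0.087. Rrm2 was at 66.5, 114 and 82.2 FPKM in BM 1 to 3, at 85, 95.7 and 83.5 in R 1 to 3 and at 69.3, 78.9 and 76.4 in RD7 1 to 3. Rrm2, the small subunit that is made in S phase, was the most abundant of the 39 genes in RD7. Its BM libraries spread from below the lowest RD7 to above the highest R library, and the RD7 libraries lay just below the R libraries (log2 fold change -0.23 ± 0.18, limma adjusted p = 0.36). Tyms, which makes thymidylate, and Tk1, which salvages thymidine, had log2 fold changes of -0.25 ± 0.15 and -0.31 ± 0.21. Dut was at 19.6, 18.1 and 37.7 FPKM in BM 1 to 3, at 36.5, 27.7 and 25.8 in R 1 to 3 and at 34.2, 48.1 and 33.9 in RD7 1 to 3. Dut, which keeps uracil out of DNA, was 1 of 2 members with a log2 fold change above 0 in RD7 against R, the other being Gins4, and its groups overlapped (log2 fold change 0.36 ± 0.27, limma adjusted p = 0.34).

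**Figure D3:**
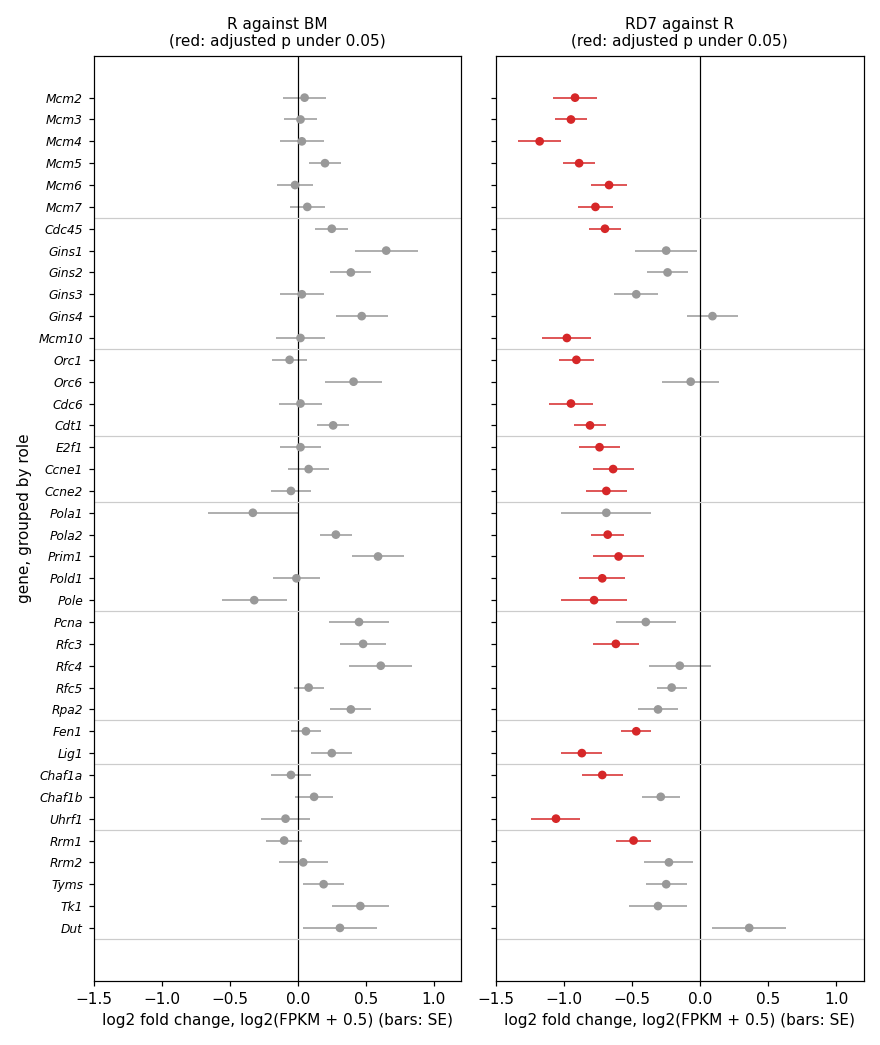
Log2 fold change on the log2(FPKM + 0.5) scale with its SE for the 39 genes (rows, grouped by role), for R against BM (left) and RD7 against R (right); red marks an adjusted p under 0.05. No gene is red on the left, and 24 are red on the right, all below 0.

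RD7 differs from BM by both factors and shares its libraries with the comparison above. Of the 39 genes, 24 were lower in RD7 than in BM, against 25.4% of all genes tested, and 1 was higher, against 21.6%, with a median log2 fold change of -0.55. The largest drops were those of Uhrf1 (log2 fold change -1.15 ± 0.18), Mcm4 (-1.15 ± 0.16), Pole (-1.10 ± 0.24), Pola1 (-1.02 ± 0.33), Orc1 (-0.97 ± 0.13), Mcm10 (-0.96 ± 0.18), Cdc6 (-0.94 ± 0.16) and Mcm3 (-0.93 ± 0.12). Limma gave these 8 genes adjusted p from 0.00021 to 0.028. Pola1 had the weakest call of the 8 and lost it without BM 1, BM 2, RD7 2 or RD7 3, with the filter dropped and with either length trend or the GC trend removed (adjusted p up to 0.10). Without BM 3, 23 were lower and 5 higher: Gins4, Gins1, Rfc4, Orc6 and Dut. The shares of all genes lower and higher in RD7 against BM were not counted for that fit. The gene that was higher with all libraries was Gins4 (log2 fold change 0.56 ± 0.19, limma adjusted p = 0.037), whose groups overlapped, and the call was lost when any of BM 1, BM 2, R 1, R 2, RD7 2 and RD7 3 was left out and with either length trend removed (adjusted p up to 0.40). The call of Rrm1 (-0.59 ± 0.13) was lost with the length trend removed (adjusted p = 0.22). Prim1 and Rfc3, lower in RD7 than in R, had log2 fold changes of -0.01 ± 0.19 and -0.14 ± 0.17 against BM, where neither was called. The call of Gins3, at -0.44 ± 0.16, was lost without any 1 of BM 2, BM 3, R 1, R 2, R 3, RD7 1 and RD7 2 (adjusted p up to 0.14). Pola2 and Fen1, at -0.39 ± 0.12 and -0.40 ± 0.11, were not called without BM 2, and Pola2 also not without BM 1 or RD7 3 (adjusted p up to 0.071).

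The count of calls between R and BM changed with BM 3. Without BM 3, limma called 11 of the 39 genes higher in R than in BM, against 13.2% of all genes, and none lower. They were Gins1 (log2 fold change 0.89 ± 0.19), Rfc4 (0.88 ± 0.17), Prim1 (0.74 ± 0.18), Pcna (0.71 ± 0.17), Tk1 (0.69 ± 0.17), Orc6 (0.68 ± 0.14), Gins4 (0.67 ± 0.17), Dut (0.64 ± 0.20), Rfc3 (0.63 ± 0.17), Rpa2 (0.51 ± 0.15) and Gins2 (0.50 ± 0.15), with limma adjusted p from 0.0072 to 0.042. Gins1 was at 7.4, 6.8 and 12 FPKM in BM 1 to 3, at 14.1, 14.9 and 11.9 in R 1 to 3 and at 8.77, 13.5 and 12.3 in RD7 1 to 3. Rfc4 was at 20.1, 18.8 and 34.5 FPKM in BM 1 to 3, at 41, 39.2 and 29.9 in R 1 to 3 and at 28.6, 37.9 and 32 in RD7 1 to 3. In both, BM 1 and BM 2 were the lowest of the 9 libraries and BM 3 stood with R and RD7. With all libraries, R lay wholly above BM for 8 of the 39 genes, against 15.9% of all genes. They were Mcm5, Gins2, Cdt1, Cdc45, Pola2, Prim1, Lig1 and Rpa2.

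BM 3 was the highest BM library for 16 of the 39 genes and the lowest for 19, and its difference from BM 1 and BM 2 varied with gene length. The difference of BM 3 from the other BM libraries had a Spearman correlation of -0.62 with the exon length of the gene across the 39 genes, so short genes tended to be high in it and long ones low. The same measure was 0.49 for BM 1 and 0.44 for BM 2. Within R it ran from -0.41 for R 1 to 0.55 for R 3, and within RD7 from -0.46 for RD7 2 to 0.56 for RD7 1. Across the 39 genes, the log2 fold change of R against BM had a Spearman correlation of -0.82 with the length of the longest coding transcript, beside -0.39 over 15815 genes tested. For RD7 against R it was -0.62, beside -0.27. With exon length in place of transcript length the correlations were weaker. They were -0.53, beside -0.33, for R against BM and -0.42, beside -0.22, for RD7 against R. These points share libraries and are not independent. The 24 genes lower in RD7 than in R had a median transcript of 3102 bases and the 15 others one of 1922 bases. Genes at the short end were Gins1 (1087 bases), Rfc4 (1279), Rfc3 (1317), Gins4 (1349), Tk1 (1440) and Orc6 (1466), of which Rfc3 alone was called between RD7 and R.

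**Figure D4:**
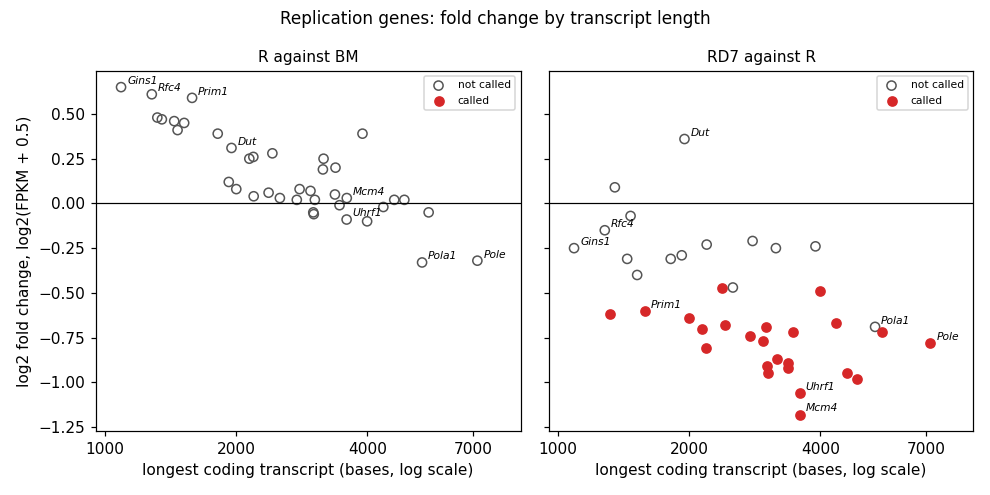
Log2 fold change on the log2(FPKM + 0.5) scale against the longest coding transcript in bases (log axis) for the 39 genes, in R against BM (left) and RD7 against R (right), with called genes filled red. On the left, short genes such as Gins1 (0.65) lie above long ones such as Pole (-0.32); on the right, all genes but Dut and Gins4 are below 0 and the lowest is Mcm4 (-1.18).

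With the trend on gene length removed from each library, 22 of the 39 genes were still lower in RD7 than in R and none higher. Mcm4 then had a log2 fold change of -1.06, Uhrf1 of -0.90, Cdc6 of -0.77 and E2f1 of -0.66. The relation with transcript length was not fully removed. Across the 39 genes its Spearman correlation was still -0.46 for RD7 against R and -0.57 for R against BM. With the trend on transcript length removed, an alternative chosen after seeing the data, 27 were lower. The 4 it added were Pcna, Gins1, Tk1 and Rpa2, and Rrm1 was lost. The same correlation was then -0.23 for RD7 against R and -0.34 for R against BM. For R against BM, neither length trend gave a call. The share of all genes called under either length trend was not counted, so the 22 and 27 genes have no background beside them.

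The promoter element and the fall with DHT were set side by side as a description. Of the 13 genes with the E2F consensus, 11 were lower in RD7 than in R, the others being Gins3 and Pola1. Of the 20 genes without it, 10 were lower, among them Mcm2, Mcm10 and E2f1, and those not called included Pcna, Rrm2, Tk1 and Dut. The difference between these counts was not tested.

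Other genes of the same process were counted in the same way, beside shares of 17.7% lower and 13.4% higher over all genes tested in RD7 against R. Of 28 other fork and polymerase genes, 12 were lower in RD7 than in R, 1 was higher and 15 were not called, with a median log2 fold change of -0.54. Those with the largest drops were Mtbp (-1.21 ± 0.18), a partner of the origin-firing factor Ticrr, Recql4 (-1.05 ± 0.21), a helicase-like factor of origin firing, Topbp1 (-0.94 ± 0.23), a scaffold of origin firing and checkpoints, and Timeless (-0.93 ± 0.14), which protects forks. Topbp1 was not called without R 3 or RD7 3 (adjusted p up to 0.058). The gene that was higher was Rpa3 (1.04 ± 0.36), the smallest subunit of the single-strand binder, and it lost the call when BM 1, R 2, R 3 or any of the RD7 libraries was left out (adjusted p up to 0.16). Of 8 other origin and licensing genes, 6 were lower and none higher, led by Dtl (-0.94 ± 0.21), which marks Cdt1 for destruction, and Orc3 (-0.76 ± 0.15). The kinase gene Cdc7 (-0.72 ± 0.20) and its activator Dbf4 (-0.67 ± 0.20) also had adjusted p under the threshold. The call of Cdc7 was lost without R 1, R 2, R 3, RD7 1 or RD7 3, and that of Dbf4 without any 1 of the R and RD7 libraries. Both calls were also lost with the gene length trend or the GC trend removed (limma adjusted p up to 0.081 and 0.11 over the settings tried). Geminin, Gmnn, which holds Cdt1 inactive after origins have fired, was at 30.6 FPKM in R and 31.3 in RD7.

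Of 8 other chromatin copying genes, 4 were lower with DHT and none higher (all genes 17.7% and 13.4%), with a median of -0.47. These were Hells (-0.90 ± 0.18), a chromatin remodeller, the maintenance DNA methyltransferase gene Dnmt1 (-0.74 ± 0.23), the histone chaperone gene Nasp (-0.53 ± 0.14) and Slbp (-0.46 ± 0.15), which binds histone mRNA. Dnmt1 was not called without R 1, R 3, RD7 2 or RD7 3, and Nasp not without R 1 or R 2. Slbp was not called without any 1 of the R and RD7 libraries. Nasp and Slbp also lost the call with the gene length trend or the GC trend removed. Limma adjusted p reached 0.12 for Dnmt1, 0.16 for Nasp and 0.28 for Slbp over the settings tried. Of 16 other nucleotide supply genes, 5 were lower and 1 higher, beside 17.7% and 13.4% of all genes, and 10 were not called, with a median of -0.29. Dck (-0.78 ± 0.14), the deoxycytidine kinase, Umps (-0.69 ± 0.11), of pyrimidine synthesis, and Dctd (-0.56 ± 0.13), a deoxycytidylate deaminase, were called lower in all 21 alternatives. Gart (-0.49 ± 0.14), of purine synthesis, was not called without any 1 of R 1, R 2, R 3, RD7 2 and RD7 3 (adjusted p up to 0.093). Samhd1 (0.52 ± 0.15), which breaks down deoxynucleotides, was higher, and not without R 1, R 2, R 3 or RD7 3 (adjusted p up to 0.081). In R against BM, 1 gene of these 4 lists was called, the adenosine deaminase gene Ada, which was higher at 0.87 ± 0.22 in log2 and lost the call without BM 1, R 1, R 2 or R 3 (adjusted p up to 0.13).

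Upstream of replication, 14 of 31 genes that control entry into S phase were lower in RD7 than in R and 1 was higher, beside 17.7% and 13.4% of all genes, with a median of -0.42. Cdkn2b (-2.06 ± 0.16), an inhibitor of the cyclin D kinases, had the largest drop, from 27.9 ± 3.35 to 6.28 ± 0.453 FPKM. It was followed by Ccnd1 (-0.92 ± 0.25), a D-type cyclin, E2f8 (-0.90 ± 0.18), an E2F that represses, and the retinoblastoma relative Rbl1 (-0.90 ± 0.27). Ccnd1 was not called without R 1, R 3 or RD7 2, and Rbl1 without R 1, R 2, R 3, RD7 2 or RD7 3 (adjusted p up to 0.082 and 0.11). The gene that was higher was the Cdk inhibitor Cdkn1c (1.21 ± 0.17), at 35.8 ± 5.75 FPKM in BM, 12.9 ± 1.63 in R and 30.8 ± 5.18 in RD7, and it was lower in R than in BM (-1.43 ± 0.17). The D-type cyclin gene Ccnd2 and the inhibitor gene Cdkn2d were higher in R than in BM (0.88 ± 0.22 and 0.75 ± 0.20), but neither call held without any 1 of BM 1, R 1, R 2, R 3 and RD7 3, nor that of Cdkn2d without BM 2 or RD7 2 (adjusted p up to 0.099 and 0.17). Cdkn1a, which encodes the inhibitor p21, stood at 36 ± 12.1, 46.9 ± 6.89 and 64 ± 12.3 FPKM and was called neither between R and BM nor between RD7 and R. It was higher in RD7 than in BM (log2 fold change 0.86 ± 0.23, limma adjusted p = 0.014), with all RD7 libraries above all BM libraries, and lost the call without BM 2 or RD7 2 (adjusted p up to 0.058).

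Mitosis genes, active at the other end of the cycle, were compared in the same way. Of 21, 13 were lower in RD7 than in R and none higher, beside 17.7% and 13.4% of all genes, with a median of -0.60, beside -0.67 for the replication genes; the difference between these medians was not tested. Ttk (-0.88 ± 0.16), Tpx2 (-0.85 ± 0.12), Foxm1 (-0.83 ± 0.20) and Kif11 (-0.79 ± 0.22) had the largest drops, and Kif11 was not called without R 2, R 3 or RD7 2 (adjusted p up to 0.080). Mki67, the common marker of cycling cells, had 11.1 ± 0.581 FPKM in R beside 9.08 ± 3.54 in RD7 and was not called (-0.33 ± 0.27). It was lower in RD7 than in BM (log2 fold change -0.82 ± 0.27, limma adjusted p = 0.031). That call was lost without BM 1, BM 2, RD7 1 or RD7 2 and with either length trend removed (adjusted p up to 0.14 over the settings tried). In R against BM none of the 21 was called by limma, against 10.0% of all genes. None had an unadjusted limma p under 0.05, beside 4104 of the 15860 genes tested.

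**Figure D5:**
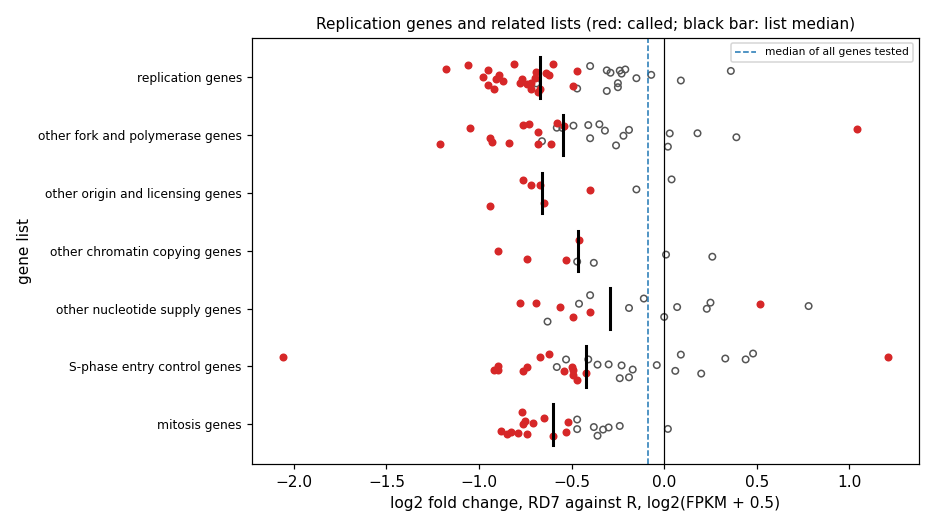
Log2 fold change of RD7 against R on the log2(FPKM + 0.5) scale for each gene of the replication list and 6 related lists, with called genes in red, each list's median as a black bar and the median of all genes tested (-0.09) as a dashed line. The medians of all 7 lists lie between -0.67 and -0.29.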

How the data were processed

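RNA-seq of 9 organoid libraries, 3 for each of the media BM, R and RD7, was used as deposited by the authors in FPKM, in 1 table per library with 49585 genes. Per the submitters' processing notes, the build was GRCm38 and the tools included STAR 2.6.1a, CASAVA 1.9, edgeR 3.24.1 and featureCounts, with no role given. The annotation release is not given in the sources used here. Reads per gene were read back from FPKM with exon lengths of GENCODE M21 for 22971 genes and with a fitted length for 3835 genes. No length was found for 7 genes, which were left out, and 22772 genes were at 0 in all libraries. A read counted as whole within 0.01.

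Genes with at least 0.5 CPM from these reads in at least 3 libraries were kept. Log2(FPKM + 0.5) was fitted with limma 3.58.1 (R 4.3.3, trend and robust, 6 residual degrees of freedom) over all 9 libraries, with Benjamini-Hochberg adjustment over 15860 genes. The script was tested on simulated data. FPKM was the main unit, and limma-voom on the reads read back was an alternative.

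The 39 genes and the other lists were chosen with earlier results of these data known. Per-library values are given for the 8 called members with the largest absolute log2 fold change in each comparison and for Mcm2, Mcm5, Pcna, Rrm2, Cdc6, Cdt1, E2f1, Ccne1 and Ccne2; those of Gins1, Gins4, Rfc4 and Dut were added after their values were seen. From each other list up to 4 called genes in each direction are named; Gmnn, Cdkn1a and Mki67 were added in the same way. In all, 21 alternatives were run: pseudocounts, filters, scalings, length and GC trends, voom, a replicate block, the 2 groups alone and each library left out.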

Additional observations from a re-analysis of the deposited data

How the results depend on the processing

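No replication gene changed direction while called, in any of the 21 alternatives. In RD7 against R, 19 of the 24 calls held in all of them and between 19 and 27 genes were called; in RD7 against BM, 19 of 25 held and between 20 and 28 were called, with 20 to 25 lower and 0 to 5 higher. For R against BM, 0 genes were called in all alternatives but 2: without BM 3 it was 11, so leaving out 1 library at a time gave 0 to 11, and with the GC trend removed, an alternative chosen after seeing the data, it was 1, Prim1. The cause was not tested. Leaving out 1 library gave 19 to 25 genes in RD7 against R and 20 to 28 in RD7 against BM. Among the alternatives, the share of all genes called was counted only for R against BM without BM 3. Same-numbered libraries of different media did not deviate together (Pearson r from -0.52 to 0.27 over 9 pairs, 2 of them over 0.1). Pairs with different numbers ran from -0.58 to 0.58. These values cannot show whether a number marks a shared mouse, sort or day, which is not given. With the replicate block, 0 genes were called between R and BM, 22 between RD7 and R and 22 between RD7 and BM. BM 1 had the fewest reads, and Gins3 rests on the fewest there (71). With 3 libraries per medium, small differences can be missed, so a gene that was not called is not shown to be equal.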
